A study of Sus scrofa with 20 samples.

Results

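The genes described here encode the enzymes, membrane proteins and proton pump of the lysosome, as expressed in the ileal mucosa of suckling and weaned piglets. They are 41 gene symbols given as a list, and a symbol was used where the array had a probe set annotated with that symbol alone. Of the 41, 33 were measured, by 57 of the 23999 probe sets tested, and each gene was represented by its brightest probe set over all arrays. The other 8, ARSB, ATP6AP1, CTSA, CTSL, GAA, MANBA, NAGLU and PPT1, had no such probe set. All 33 measured genes reached 4 log2 units in at least 1 array, and 32 of them, all but SMPD1, passed a filter of 4 log2 units in at least 3 arrays.

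The study followed crossbred (Landrace, Large white and Duroc) piglets from the suckling period past weaning, with 1 Affymetrix porcine array per piglet and 20 arrays in all. Suckling piglets had access to sow milk only and were sampled at 14 days (S14D, n = 3), 21 days (S21D, n = 4), 28 days (S28D, n = 4) and 35 days (S35D, n = 3). Piglets separated at 21 days and given a commercial weaning diet were sampled at 28 days (21W28D, n = 3) and at 35 days (21W35D, n = 3). The sources differ on how many litters the piglets came from, and the labels do not tie arrays to litters, so that a litter effect could not be examined.

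Lysosomes are acidified by a proton pump and hold hydrolases that cut glycans, lipids and proteins into products that membrane carriers return to the cytosol. In neonatal mammals the enterocytes of the distal small intestine take up milk proteins from the lumen by endocytosis and digest them in large lysosomal vacuoles. These vacuolated cells are replaced by mature enterocytes around weaning age. Macrophages and other immune cells of the mucosa also carry abundant lysosomes.

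The values were log2 units after gcRMA, from a floor of 2.08 to 16.41, with 41.6% of all values within 1 unit of the floor and array medians between 5.07 and 5.34. The lowest correlation of an array with the remaining arrays of its group was 0.970. Replicate 1 of S14D correlated slightly better with S21D (0.988) than with its own group (0.986), and it had an erythrocyte marker score of 3.54, where no other array exceeded 0.91. The labels of S35D and 21W28D are in doubt. An earlier look at these data found that the order of these 2 groups in interferon-induced genes on the arrays was the opposite of that in a separate measurement by the study. On the arrays the interferon score was between 1.79 and 2.85 in the arrays labelled S35D and between -1.75 and -0.35 in those labelled 21W28D. These groups are therefore called the arrays labelled S35D and the arrays labelled 21W28D, and the results for the 33 genes that rest on them are also given with the labels exchanged. By the methods' t-test, the test that the study itself used, at an unadjusted p under 0.05 with a 2-fold minimum, 1530 probe sets differed between S28D and the arrays labelled S35D and 36 between S28D and the arrays labelled 21W28D. In bulk mucosa, fewer cells of a type and less RNA per cell cannot be told apart, and the p-values measure the spread between piglets.

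Between S14D and S21D, most lysosomal genes fell. Of the 33 measured genes, 24 fell and 2 rose at an adjusted p under 0.05 from limma, while 7 were not called. Over all probe sets tested, 7.63% were called lower and 7.27% higher in the same comparison. The median log2 difference of the 33 genes was -1.05, against 0 over all probe sets, and their range ran from -3.81 for NEU1 to 1.94 for GM2A. The drop spanned glycosidases (6 of 7 measured), sulfatases (2 of 2), lipid enzymes and lipid handling proteins (5 of 8, with 1 higher), proteases (5 of 8), membrane proteins (5 of 5) and the proton pump (1 of 3, with 1 higher). For each of the 26 called genes, the S14D and S21D arrays did not overlap, but these genes were selected by a test on the same arrays. The share of all probe sets without overlap is not given, so this separation is not further support.

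**Figure D1:**
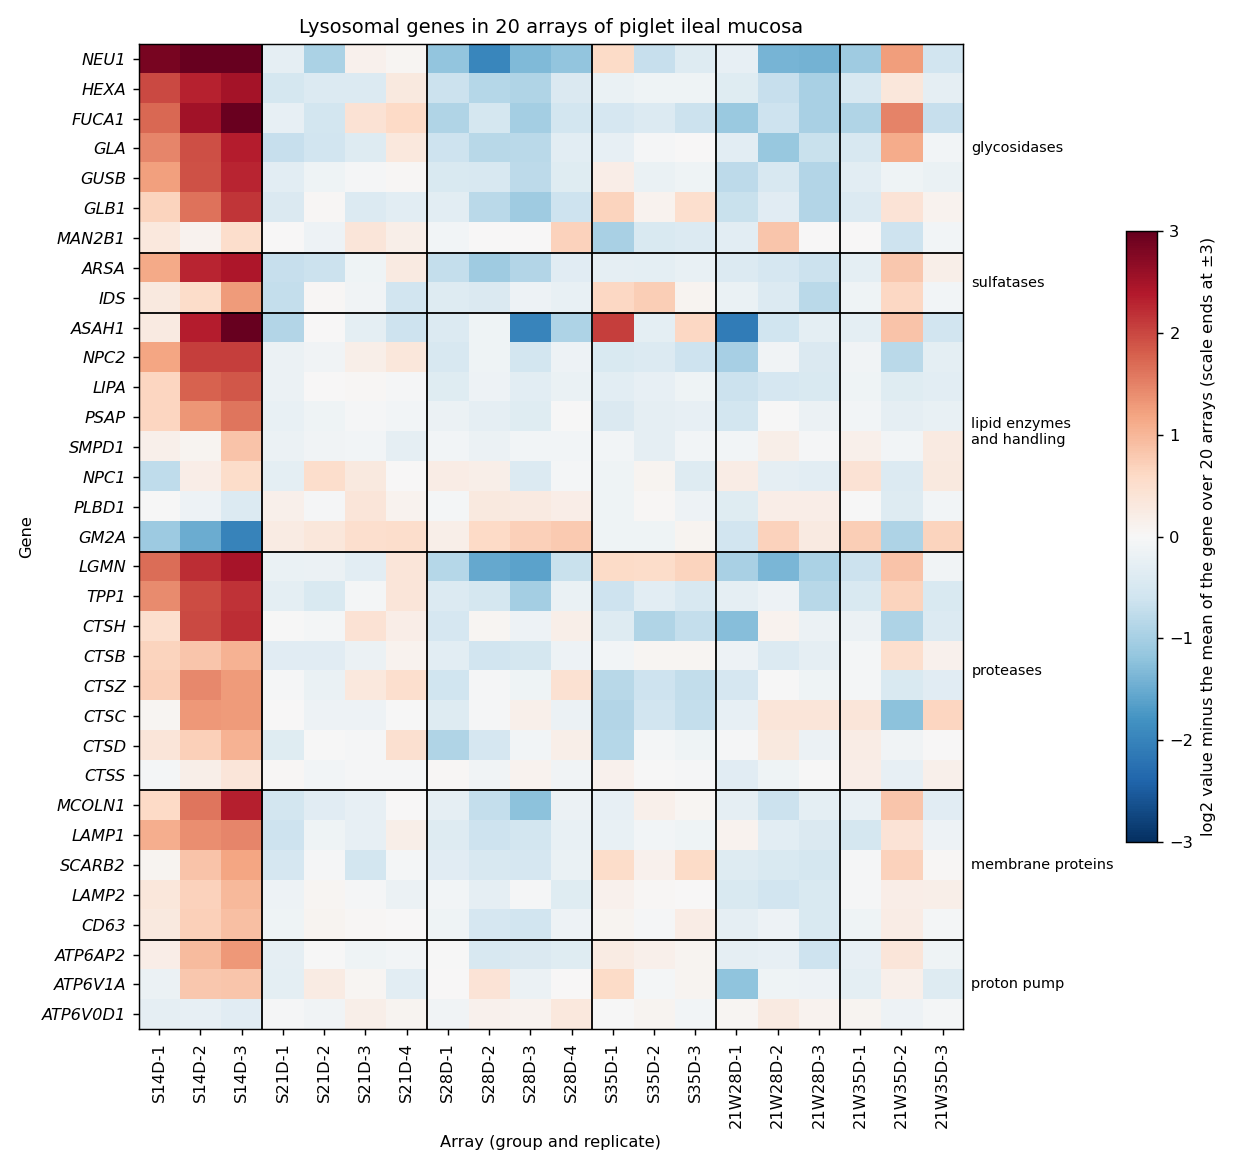
Each row is 1 of the 33 measured lysosomal genes, grouped by role, and each column is 1 of the 20 arrays. Colour gives the log2 value minus the gene's mean over all arrays, on a scale that ends at 3 units in either direction. The red block on the left is S14D, where replicate 3 is the highest of its group for 28 genes and replicate 1 the lowest for 28. GM2A is the row that runs the other way most clearly, and ATP6V0D1 is also below all later arrays in S14D.

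Seen against all later arrays together, 17 of the 33 genes had all 3 S14D values above every one of the other 17 arrays, which held for 3.97% of all probe sets. GM2A and ATP6V0D1 had all 3 S14D values below every later array, which held for 1.77% of all probe sets. With each gene centred on its mean over all arrays, the 33 genes averaged 1.11 ± 0.45 (SD, n = 3) in S14D and -0.09 ± 0.15 (SD, n = 4) in S21D. They averaged -0.35 ± 0.14 (SD, n = 4) in S28D, and the highest array of any later group, at 0.14, was below the lowest S14D array, at 0.61.

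Among the glycosidases, which trim sugars from glycoproteins and glycolipids, NEU1 changed most. NEU1, the lysosomal sialidase that removes terminal sialic acid, was at 10.10, 10.82 and 11.46 log2 units in S14D, at 6.97, 6.30, 7.36 and 7.31 in S21D, and at 6.05, 5.29, 5.92 and 6.07 in S28D. In later groups it was at 7.81, 6.55 and 6.85 in the arrays labelled S35D, at 6.99, 5.84 and 5.82 in those labelled 21W28D, and at 6.17, 8.50 and 6.68 in 21W35D. The lowest S14D array thus stood above the highest later array, replicate 2 of 21W35D. NEU1 fell by 3.81 from S14D to S21D (standard error 0.53, 14.0-fold, adjusted p = 0.000475).

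HEXA, the alpha subunit of beta-hexosaminidase A, was at 12.70, 13.03 and 13.21 in S14D, at 10.18, 10.31, 10.30 and 11.01 in S21D, and at 10.06, 9.85, 9.81 and 10.27 in S28D. The arrays labelled S35D, those labelled 21W28D and the 21W35D arrays all lay between 9.74 and 11.04. HEXA was thus high in S14D alone, and it fell by 2.53 from S14D to S21D (standard error 0.23, adjusted p = 7.96e-06), the lowest adjusted p among the 33 genes in this comparison.

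FUCA1, the lysosomal alpha-fucosidase, was at 13.21, 14.00 and 14.44 in S14D, at 11.23, 10.93, 11.91 and 12.08 in S21D and at 10.57, 10.95, 10.46 and 10.94 in S28D. GLA, the alpha-galactosidase that cleaves globotriaosylceramide, was at 10.93, 11.41 and 11.82 in S14D, at 8.78, 8.90, 9.09 and 9.77 in S21D and at 8.85, 8.64, 8.65 and 9.14 in S28D. Both genes were clear of the later suckling groups, and in both replicate 2 of 21W35D, at 12.96 and 10.57, was the highest later array. FUCA1 fell by 2.35 (standard error 0.47, adjusted p = 0.00598) and GLA by 2.25 (standard error 0.34, adjusted p = 0.000952) from S14D to S21D.

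GUSB, the beta-glucuronidase of glycosaminoglycan breakdown, was at 13.06, 13.75 and 14.11 in S14D, at 11.51, 11.70, 11.81 and 11.88 in S21D and at 11.37, 11.34, 11.06 and 11.48 in S28D. GLB1, the lysosomal beta-galactosidase, was at 10.46, 11.43 and 11.93 in S14D, at 9.36, 9.82, 9.38 and 9.48 in S21D and at 9.48, 8.97, 8.72 and 9.17 in S28D. GUSB had a tight S21D group and fell by 1.91 (standard error 0.20, adjusted p = 3.57e-05), and GLB1 fell by 1.76 (standard error 0.30, adjusted p = 0.00213). GLB1 was not clear of all later arrays, since replicate 1 of the arrays labelled S35D reached 10.47, just above the lowest S14D array. MAN2B1, an alpha-mannosidase, was the glycosidase that was not called, at 6.39 ± 0.22 (SD, n = 3) in S14D and 6.17 ± 0.22 (SD, n = 4) in S21D.

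**Figure D2:**
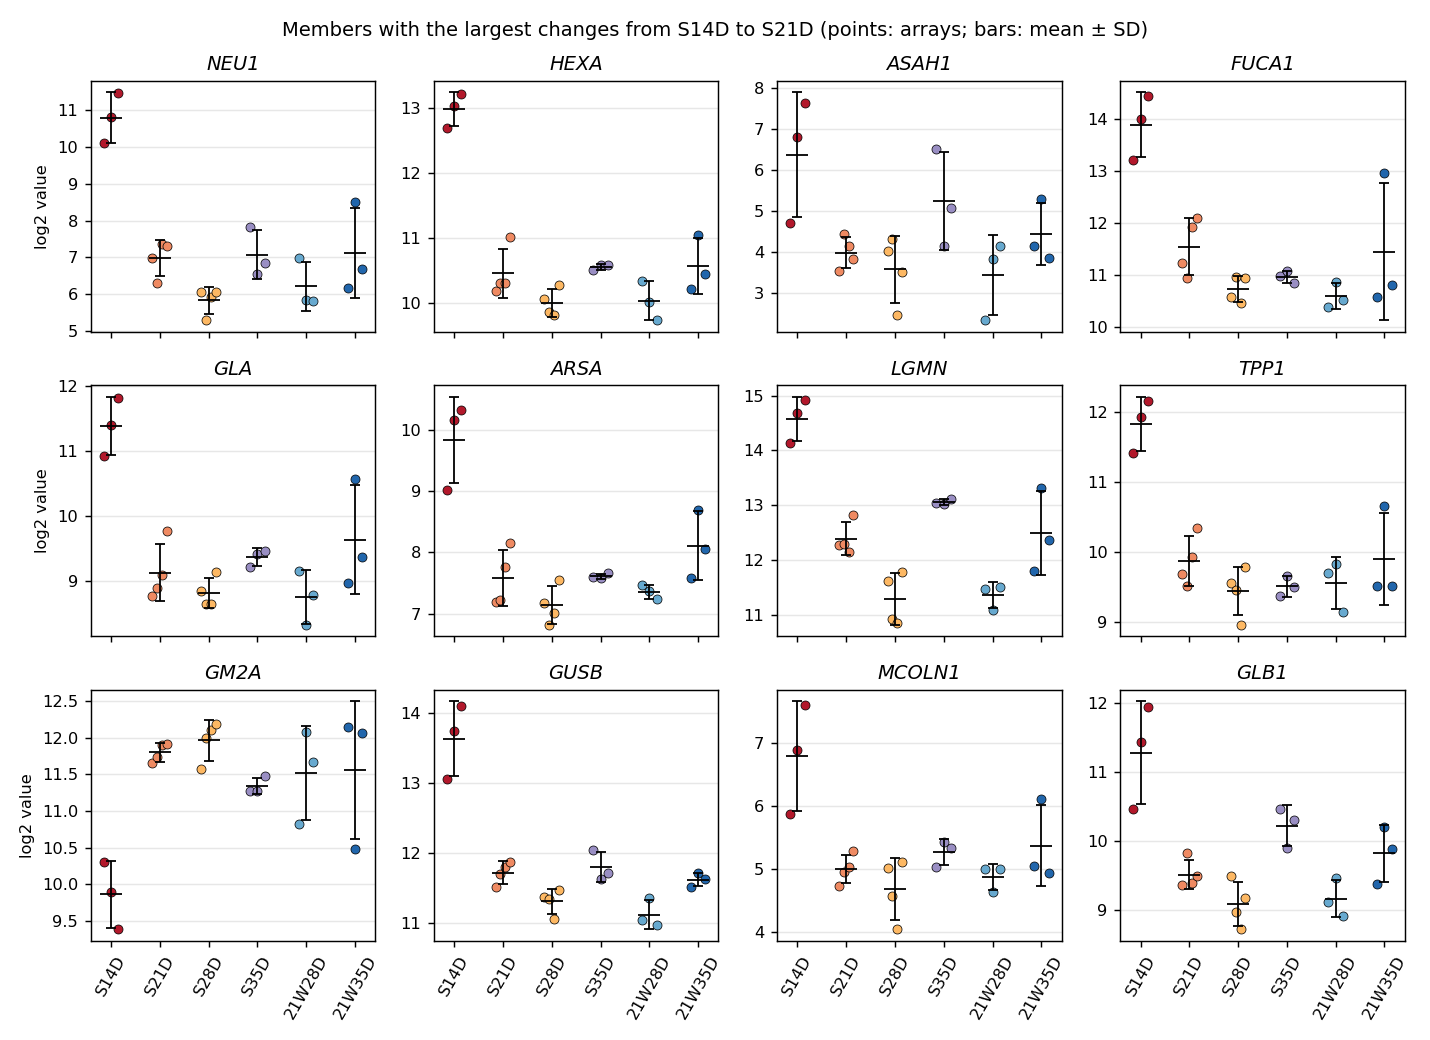
Each panel is 1 of the 12 lysosomal genes with the largest changes from S14D to S21D, with log2 values on the y axis, 1 point per array and bars for the mean and SD of each group. In 11 panels S14D is the high group and in the panel of GM2A it is the low one. Replicate 2 of 21W35D, the isolated high point of that group for NEU1 at 8.50 and for FUCA1 at 12.96, is the low point for GM2A at 10.48.

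Both measured sulfatases fell. ARSA, the arylsulfatase that desulfates sulfatide, was at 9.02, 10.16 and 10.31 in S14D, at 7.19, 7.23, 7.76 and 8.15 in S21D and at 7.17, 6.82, 7.01 and 7.55 in S28D. Its 3 S14D values lay above all later arrays, and it fell by 2.25 from S14D to S21D (standard error 0.32, adjusted p = 0.000621). IDS, the iduronate sulfatase of heparan and dermatan sulfate breakdown, fell by 1.05 (standard error 0.27, adjusted p = 0.0194), from 7.08 ± 0.51 (SD, n = 3) to 6.03 ± 0.36 (SD, n = 4).

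The lipid enzymes and lipid handling proteins split. ASAH1, the acid ceramidase, was at 4.70, 6.79 and 7.63 in S14D, at 3.55, 4.44, 4.15 and 3.83 in S21D and at 4.04, 4.31, 2.47 and 3.51 in S28D. Its S14D arrays were widely spread and the lowest of them stood only just above S21D, and the log2 difference of -2.38 had a standard error of 0.72 (adjusted p = 0.04). NPC2, which passes cholesterol from the lumen of the lysosome to its membrane, fell by 1.72 (adjusted p = 0.000657). LIPA, the acid lipase for cholesteryl esters and triglycerides, fell by 1.48 (adjusted p = 0.000501), and PSAP, the precursor of the saposins that present sphingolipids to their hydrolases, fell by 1.31 (adjusted p = 0.000391). SMPD1, the acid sphingomyelinase, fell by 0.51 (adjusted p = 0.032), near the floor at 3.89 ± 0.44 (SD, n = 3) in S14D and 3.37 ± 0.09 (SD, n = 4) in S21D.

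GM2A ran the other way. It encodes the GM2 activator, which lifts GM2 ganglioside out of the membrane for beta-hexosaminidase A. GM2A was at 10.30, 9.90 and 9.38 in S14D, at 11.65, 11.74, 11.90 and 11.92 in S21D and at 11.57, 11.99, 12.10 and 12.19 in S28D. In the arrays labelled S35D it was at 11.28, 11.27 and 11.47, in those labelled 21W28D at 10.82, 12.08 and 11.67, and in 21W35D at 12.14, 10.48 and 12.06. All later arrays exceeded the highest S14D array, although replicate 2 of 21W35D did so by little, and GM2A rose by 1.94 from S14D to S21D (standard error 0.37, adjusted p = 0.00413). A second, dimmer GM2A probe set rose by 2.69 (adjusted p = 0.00729). NPC1, the membrane protein that receives cholesterol from NPC2, was not called (log2 difference 0.14, 95% confidence interval -0.50 to 0.78).

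Of the proteases, 5 of 8 fell and 3 were not called. LGMN, the asparaginyl endopeptidase that also processes cathepsins, was at 14.14, 14.68 and 14.92 in S14D, at 12.27, 12.29, 12.15 and 12.83 in S21D and at 11.61, 10.92, 10.84 and 11.79 in S28D. TPP1, a tripeptidyl peptidase, was at 11.42, 11.94 and 12.16 in S14D, at 9.69, 9.52, 9.93 and 10.34 in S21D and at 9.57, 9.46, 8.96 and 9.79 in S28D. Neither gene overlapped between S14D and any later array. LGMN fell by 2.20 (standard error 0.32, adjusted p = 0.000736) and TPP1 by 1.97 (standard error 0.30, adjusted p = 0.000963) from S14D to S21D. The cysteine cathepsins CTSH, CTSB and CTSZ fell too, CTSH by 1.42 (adjusted p = 0.0254), CTSB by 1.03 (adjusted p = 0.000489) and CTSZ by 1.00 (adjusted p = 0.0145). CTSS, the cathepsin of antigen-presenting cells, was at 14.24 ± 0.20 (SD, n = 3) in S14D and 14.06 ± 0.05 (SD, n = 4) in S21D and was not called. CTSC, which activates granule proteases of immune cells, differed by -0.95 (adjusted p = 0.105), and CTSD, the aspartic protease of the group, by -0.69 (adjusted p = 0.103).

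All 5 membrane proteins fell. MCOLN1, the lysosomal cation channel that releases calcium, was at 5.87, 6.88 and 7.60 in S14D, at 4.73, 4.94, 5.02 and 5.28 in S21D and at 5.01, 4.56, 4.04 and 5.10 in S28D. It fell by 1.79 from S14D to S21D (standard error 0.37, adjusted p = 0.00707), but replicate 2 of 21W35D, at 6.10, stood above the lowest S14D array. LAMP1, a main glycoprotein of the lysosomal membrane, fell by 1.52 (adjusted p = 0.000551), and its relative LAMP2 by 0.74 (adjusted p = 0.0014). SCARB2, which carries beta-glucocerebrosidase to the lysosome, fell by 1.00 (adjusted p = 0.0148), and CD63, a tetraspanin of late endosomes, by 0.63 (adjusted p = 0.0142). In the proton pump, the accessory subunit ATP6AP2 fell by 0.94 (adjusted p = 0.0118), the catalytic subunit ATP6V1A differed by -0.57 without being called (adjusted p = 0.23), and ATP6V0D1, a subunit of the membrane sector, rose by 0.30 (adjusted p = 0.0366).

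The 2 calls of a rise do not have the same standing, because ATP6V0D1 turned with the choice of probe set. Its brightest probe set went from 10.38 in S14D to 10.68 in S21D, whereas its other probe set went from 10.96 to 9.82, and fell by 1.14 (adjusted p = 0.000598), and with the mean of both the gene was lower in S21D (log2 difference -0.42, adjusted p = 0.0103). PLBD1, a phospholipase B-like protein, was not called by its brightest probe set (log2 difference 0.34, adjusted p = 0.15). Its next probe set was at 10.35, 12.01 and 12.70 in S14D and at 6.98, 7.13, 8.52 and 8.83 in S21D, and it fell by 3.82 (adjusted p = 0.000648), while a dimmer one fell by 4.73 (adjusted p = 0.00482). The gene was thus not called by its brightest probe set, while S14D and S21D did not overlap in the next. NPC2 was called by its brightest probe set and not by the next, which was at 9.54 in S14D and 9.31 in S21D. SCARB2 was called by its brightest probe set and not by its other one (log2 difference -1.13, standard error 0.77, adjusted p = 0.4). With the mean of both, SCARB2 was not called. For FUCA1 and LAMP2, all probe sets fell, LAMP2 by 0.74 with the brightest and by 1.08 to 1.76 with the others. CTSS and CTSC, not called by their brightest probe sets, each had a dimmest probe set that was called, which fell by 0.55 (adjusted p = 0.0353) for CTSS and by 1.55 (adjusted p = 0.0319) for CTSC.

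**Figure D3:**
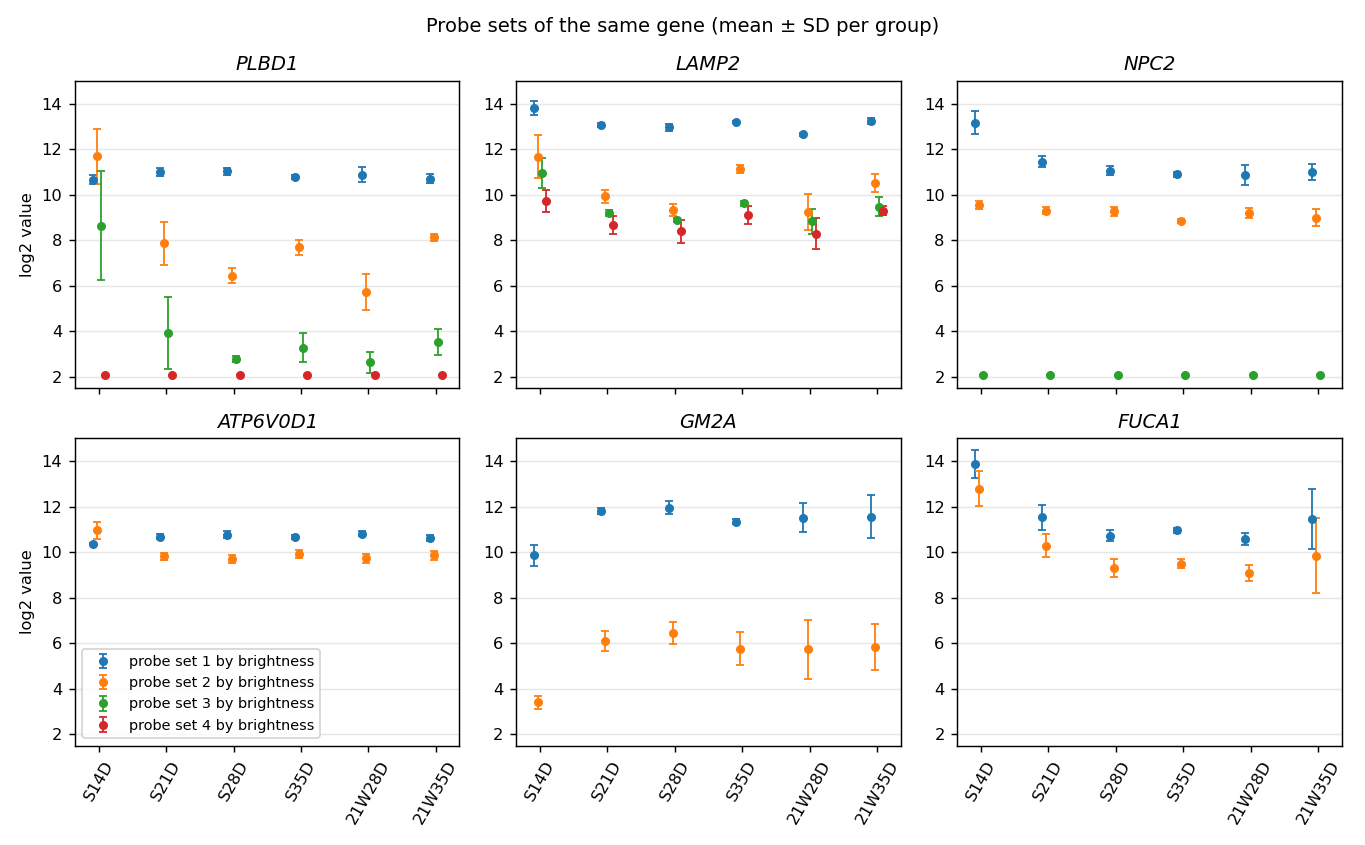
Each panel shows all probe sets of 1 gene, ranked by mean brightness over the 20 arrays, as group means with SD on the log2 scale. The brightest PLBD1 probe set changes by 0.34 while the next drops from 11.69 in S14D to 7.87 in S21D, the 2 probe sets of ATP6V0D1 cross, and both probe sets of GM2A rise after S14D. Points near 2.08 are at the floor.

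The difference between S14D and S28D had the same form, in a comparison that shares the S14D arrays. Between these groups 25 genes were lower, against 10.9% of all probe sets, and 2 were higher, against 11.3%. The 24 genes that fell by S21D were all lower in S28D too, and CTSD was added with a log2 difference of -1.04 (standard error 0.27, adjusted p = 0.0153). The median over the 33 genes was -1.24, against 0 over all probe sets. NEU1 was lower in S28D by a log2 difference of -4.96 (standard error 0.53, adjusted p = 3.44e-05), LGMN by -3.29 (adjusted p = 1.73e-05), FUCA1 by -3.15 (adjusted p = 0.000541) and HEXA by -2.98 (adjusted p = 1.24e-06), while GM2A was 2.10 higher (adjusted p = 0.00157). Over the 4 suckling groups, 26 of the 33 genes varied with age in limma's F test, as did 20.6% of all probe sets, and after the exchange of the 2 doubted labels 25 genes did, as did 11.4% of all probe sets.

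**Figure D4:**
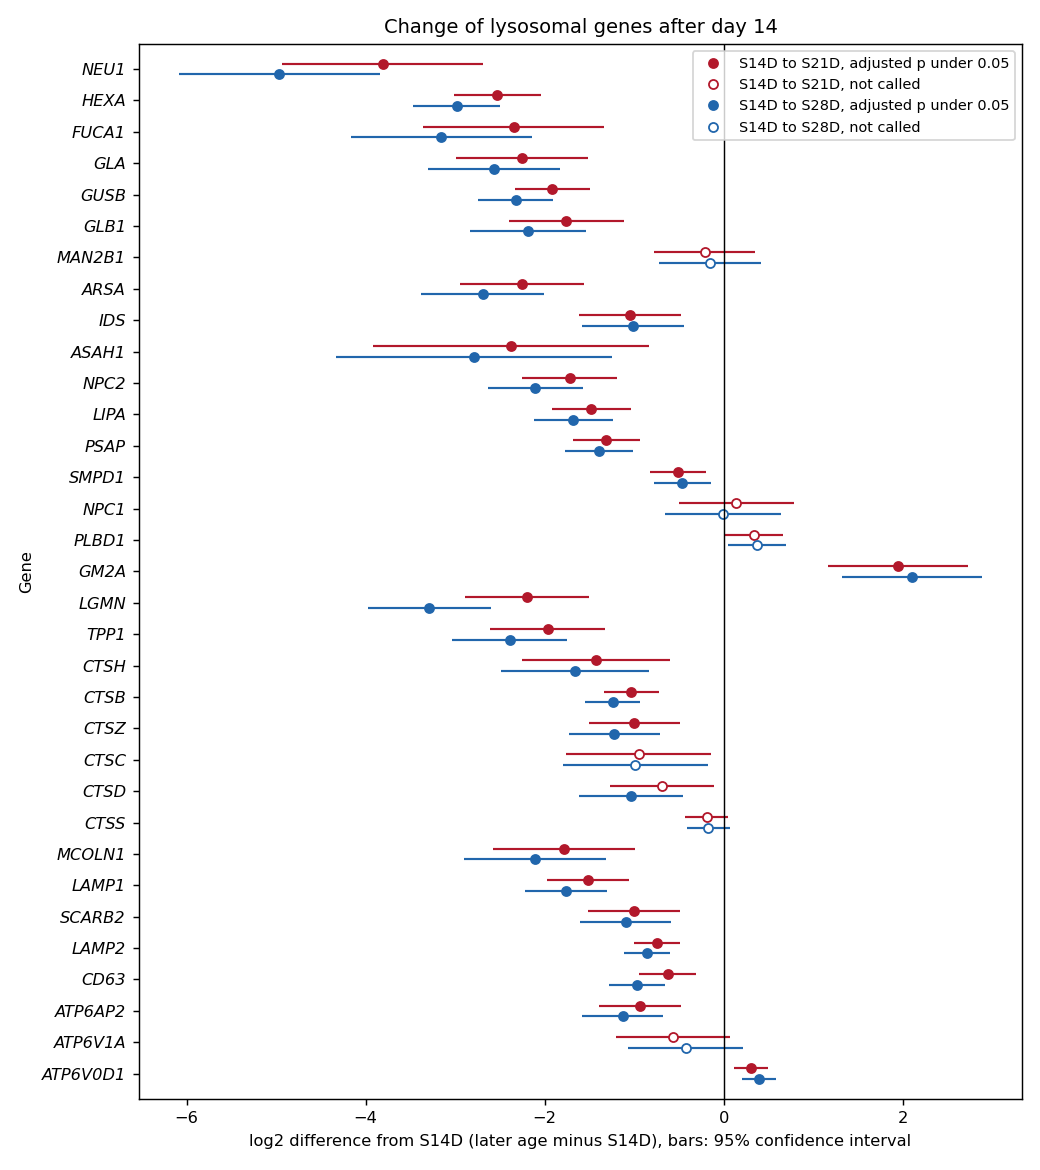
Points give the log2 difference from S14D to S21D (red) and from S14D to S28D (blue) for the 33 genes by role, with 95% confidence intervals, and open points were not called. Both sets of points use the same S14D arrays. Most points lie left of 0, those of NEU1 at -3.81 and -4.96, and those of GM2A lie right of it at 1.94 and 2.10.

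From S21D to S28D no lysosomal gene was called by limma, as was the case for nearly all probe sets (0.00417% called). The mean of S28D was below that of S21D for 25 of the 33 genes, with a median of -0.22. At an unadjusted p under 0.05, 5 genes were lower, LGMN by a log2 difference of -1.09, NEU1 by -1.15, HEXA by -0.46, GUSB by -0.41 and CD63 by -0.34, against 0.779% of all probe sets. The methods' t-test, without adjustment at p under 0.05 and with a 2-fold minimum, gave 2 genes, LGMN and NEU1, against 0.366% of the probe sets it could test.

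From S28D to the arrays labelled S35D, 2 genes were called higher (3.53% of all probe sets) and none lower (3.01%), with 11 higher and 2 lower at an unadjusted p under 0.05, against 10.9% and 12.5% of all probe sets. LGMN was at 13.03, 13.01 and 13.12 in the arrays labelled S35D, all above its S21D and S28D values, and was higher than in S28D by 1.76 (standard error 0.32, adjusted p = 0.012). GLB1 was at 10.47, 9.89 and 10.30 and was higher by 1.13 (standard error 0.30, adjusted p = 0.0397). Neither returned to its S14D mean of 14.58 or 11.27. SCARB2 was 0.81 higher (adjusted p = 0.0573) and MAN2B1 differed by -0.78 (adjusted p = 0.0886), and neither was called. Epithelial markers moved with these genes, 5 of 13 being higher with a median of 0.85, and their part in the result was not tested beyond a fit with the epithelial score as a covariate, which left 0 calls. With the labels exchanged, the comparison of S28D with S35D had no call (0.00% of all probe sets). LGMN and GLB1 were instead the genes called between S28D and 21W28D. The methods' t-test with 2-fold gave 3 genes between S28D and the arrays labelled S35D (8.44% of the probe sets it could test). The 2 calls by limma fell to 0 without replicate 1 of the arrays labelled S35D and with only the groups compared in the fit. The share of all probe sets called is not given for these alternative fits. From S28D to the arrays labelled S35D, LAMP2 was not called by its brightest probe set (0.24 higher, adjusted p = 0.24). Its next probe set was called, 1.80 higher (adjusted p = 0.0209), on the same doubted label.

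Weaning was examined by comparing weaned piglets with the day of weaning and with suckling piglets of the same age. Neither comparison at 28 days had a call by limma among the 33 genes or any probe set (0.00% and 0.00%). From S21D to the arrays labelled 21W28D, 5 genes were lower at an unadjusted p under 0.05 (0.942% of all probe sets), among them LGMN by a log2 difference of -1.03 and GUSB by -0.60, and the methods' t-test with 2-fold gave LGMN alone (0.724%). With the labels exchanged, no gene was called from S21D to 21W28D (3.57% of all probe sets) and none passed the methods' t-test, with 3 genes higher and 3 lower at an unadjusted p under 0.05 (9.32% and 10.4%), and LGMN differed by 0.67 (adjusted p = 0.268). From S28D to the arrays labelled 21W28D, LAMP2 was the 1 gene at an unadjusted p under 0.05 (log2 difference -0.30, against 0.692% of all probe sets) and the methods' t-test gave none (0.199%). LGMN differed there by 0.06 (95% confidence interval -0.63 to 0.75) and NEU1 by 0.39 (-0.74 to 1.51). With the labels exchanged, 2 genes were called in this comparison, LGMN and GLB1, where 6.54% of all probe sets were. At an unadjusted p under 0.05, 11 genes were then higher and 2 lower (10.9% and 12.5%). The methods' t-test with 2-fold gave 3 (8.44%).

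At 35 days, none of the 33 genes was called between the arrays labelled S35D and 21W35D (0.0458% of all probe sets), none reached an unadjusted p under 0.05 (5.86%), and none passed the methods' t-test (0.447%). HEXA differed by 0.01 (95% confidence interval -0.51 to 0.53) and GLB1 by -0.40 (-1.09 to 0.28). Whether the difference between weaned and suckling piglets changed from 28 to 35 days was tested as an interaction, which called no gene (0.00%). At an unadjusted p under 0.05 there were 0 of the 33 genes (2.54%). The exchange of labels cannot alter this interaction, because S35D and 21W28D enter it with the same sign. It is therefore no check on the doubted labels here. From 21W28D as labelled to 21W35D no gene was called (0.0792%), 9 were higher and none lower at an unadjusted p under 0.05 (4.32% and 4.54%), and none passed the methods' t-test (1.22%). The largest of these 9 was LGMN, at 11.47, 11.08 and 11.51 in the arrays labelled 21W28D and 11.80, 13.32 and 12.36 in 21W35D, a difference of 1.14 (adjusted p = 0.298). With the labels exchanged, these values stand for S35D against 21W35D, with 9 genes higher at an unadjusted p under 0.05, and none called, and those from S35D to 21W35D stand for 21W28D against 21W35D, with 0 at an unadjusted p under 0.05. Within 21W35D, replicate 2 was the highest array for 19 genes and the lowest for the other 14, and its scores were 1.46 for enterocyte markers and -3.65 for B cell markers. The part of these in its lysosomal values was not tested.

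Other lysosomal genes were taken from lists of hydrolases, membrane proteins, pump subunits and sorting factors. Of 20 measured other hydrolases 10 fell and 2 rose from S14D to S21D, with a median of -1.0. SMPDL3A, a sphingomyelinase-like phosphodiesterase, fell by 3.12 (standard error 0.40, adjusted p = 0.000256), from 14.31 ± 1.03 (SD, n = 3) to 11.20 ± 0.25 (SD, n = 4). SCPEP1, a serine carboxypeptidase, fell by 2.04 (adjusted p = 0.000335), and CTSV, a cathepsin whose RefSeq entry also carries the name CTSL, fell by 2.03 (adjusted p = 0.0152). ACP5, the acid phosphatase of macrophages and osteoclasts, rose by 1.97 (adjusted p = 0.0152). Of 10 measured other membrane proteins and transporters 3 fell and 1 rose, with a median of -0.41. GLMP, a glycosylated lysosomal membrane protein, fell by 2.28 (adjusted p = 0.000415), SLC38A9, an arginine sensor of the lysosome, by 1.04 (adjusted p = 0.0044) and LAPTM4A by 0.66 (adjusted p = 0.00636), while LAPTM5, a protein of blood cells, rose by 1.72 (adjusted p = 0.0472).

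The proton pump has many further subunits. Of 14 that were measured, 5 fell and 1 rose, with a median of -0.08, and 4 did not reach 4 log2 units in any array. ATP6V1H fell by 0.82 (adjusted p = 0.00229), ATP6V1B2 by 0.78 (adjusted p = 0.00527) and ATP6V0C, the proteolipid of the membrane ring, by 0.75 (adjusted p = 0.000411), and TCIRG1, a subunit used by osteoclasts and immune cells, rose by 0.74 (adjusted p = 0.0239). Of 17 measured genes that sort enzymes to the lysosome or regulate it, 8 fell and 1 rose, with a median of -0.42. GNPTG and NAGPA, which act in making the mannose 6-phosphate tag, fell by 1.58 (adjusted p = 0.00737) and 1.53 (adjusted p = 0.000203), and VPS18 and VPS33A, of the complex that tethers endosomes to lysosomes, by 1.23 (adjusted p = 0.00524) and 0.67 (adjusted p = 0.0144). TFEB, a transcription factor of lysosomal genes, was at 8.03 ± 0.19 (SD, n = 3) in S14D and 7.45 ± 0.42 (SD, n = 4) in S21D and was not called (adjusted p = 0.161).

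Genes of apical endocytosis, the route by which milk proteins reach the lysosome of the neonatal enterocyte, fell in 4 of 9 measured cases and rose in none, with a median of -0.75. DAB2, a clathrin adaptor of endocytic receptors, was at 14.10 ± 0.32 (SD, n = 3) in S14D, 9.68 ± 1.30 (SD, n = 4) in S21D and 7.45 ± 0.86 (SD, n = 4) in S28D, and it fell by 4.42 from S14D to S21D (standard error 0.94, adjusted p = 0.00819). AMN, the membrane partner of cubilin, fell by 2.03 (adjusted p = 0.0194), RAB11A, a GTPase of recycling endosomes, by 1.09 (adjusted p = 0.00709), and FCGRT, the neonatal Fc receptor, by 0.75 (adjusted p = 0.0307). CUBN, MAMDC4 and PRDM1 were among the listed genes with no probe set of their own, and LRP2 did not exceed 2.17 in any array, against a floor of 2.08.

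**Figure D5:**
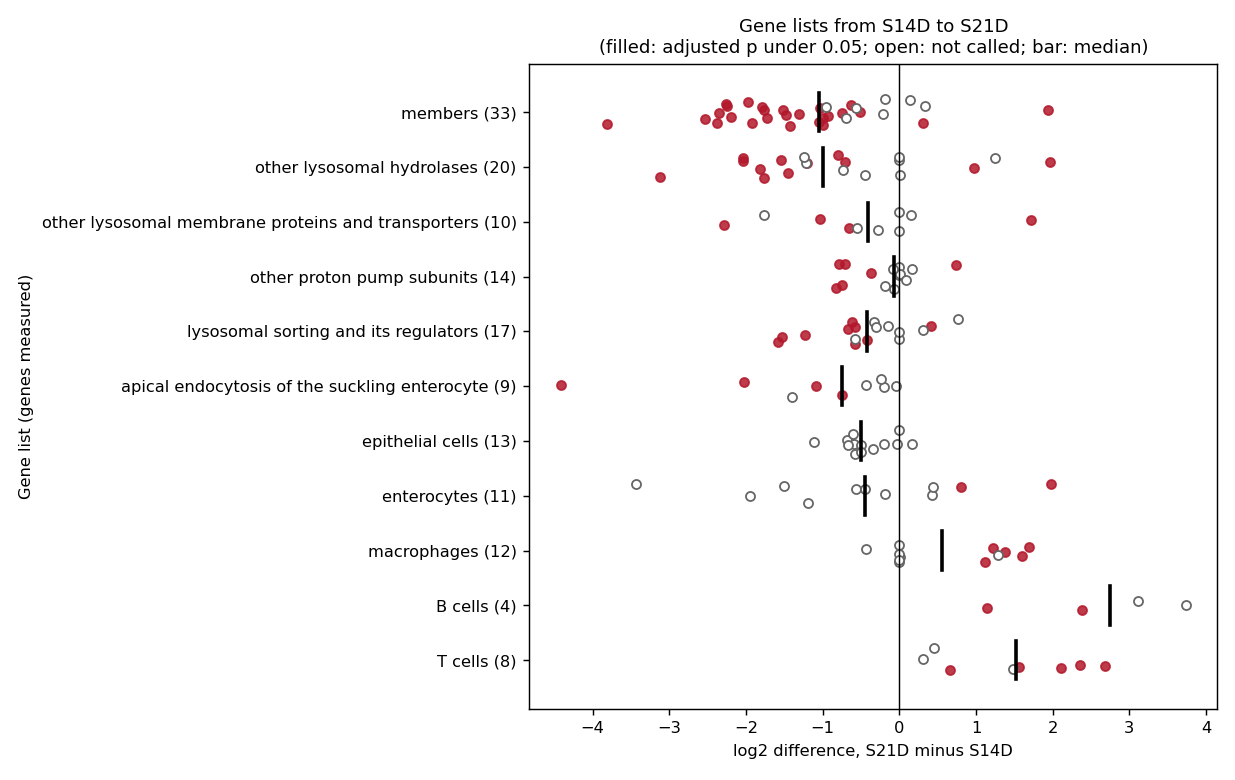
Each point is 1 gene, placed by its log2 difference from S14D to S21D on the x axis, for the 33 lysosomal genes and 10 other lists. Filled points were called, open points were not, and the bar is the median of the list, at -1.05 for the 33 genes, -1.0 for other hydrolases, -0.50 for epithelial markers and 0.56 for macrophage markers.

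Markers of cell types were set beside these values. None of 13 measured epithelial markers was called from S14D to S21D, with a median of -0.50, and their summed level, as log2, was 16.71 to 17.04 in S14D and 16.17 to 16.61 in S21D. From S14D to S28D, where 25 lysosomal genes were lower, 5 of the 13 were called lower too, CDH1, CDH17, CLDN4, CLDN7 and OCLN, and all 13 differences were below 0, with a median of -0.62 and a summed level of 15.92 to 16.68 in S28D. Enterocyte markers had 2 of 11 higher, FABP6, the ileal bile acid-binding protein, by 1.98 (adjusted p = 0.000145) and SLC5A1, the sodium-glucose cotransporter, by 0.81 (adjusted p = 0.0468), but 7 of the 11 differed in the other direction without being called, and the median was -0.45. Among these, APOA4, an apolipoprotein of fat absorption, differed by -3.43 (adjusted p = 0.137), RBP2, a retinol-binding protein, by -1.94 (adjusted p = 0.112) and MTTP, which loads lipid onto lipoproteins, by -1.19 (adjusted p = 0.0779). Of 12 measured macrophage markers 5 were higher in S21D, TYROBP, AIF1, FCER1G, C1QA and C1QC, while CD14, MARCO, SIGLEC1, ITGAM and CD4 were within 1 unit of the floor in all arrays. The summed macrophage level was 11.39 to 11.73 in S14D and 12.83 to 13.14 in S21D. MRC1, another listed macrophage marker, differed in the other direction without being called, with means of 5.82 in S14D and 5.39 in S21D. The part of macrophages in the lysosomal values was not tested beyond a fit with their score as a covariate, given below. Of 4 measured B cell markers BLNK and SPIB were higher in S21D, and 5 of 8 T cell markers were higher. Of 8 smooth muscle markers 1 was lower in S21D, with scores of 0.55 to 0.76 in S14D and -0.48 to -0.06 in S21D. From S14D to S28D, 2 of 11 enterocyte markers were called lower and 1 higher. Of 4 erythrocyte markers, 3 of which reached 4 log2 units in any array, 3 were called lower and 1 higher in S28D. The part of smooth muscle and erythrocytes in the lysosomal values was not tested. Within S14D, replicates 1, 2 and 3 had mean lysosomal values of 0.61, 1.22 and 1.48, epithelial scores of 0.09, 0.27 and 0.59 and B cell scores of 0.23, -1.12 and -3.95.

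The number of genes called changed when a cell type score was added to the fit. From S14D to S21D, 18 of the 33 genes were called with the epithelial score as a covariate and 15 with the B cell score. With the macrophage score 5 were called, HEXA, GUSB, LIPA, PSAP and NPC2. The macrophage score lay between -1.16 and -0.97 in S14D and at -0.43 or higher in every later array. It thus separates S14D from all later arrays, and its part cannot be told apart from that of age. The share of all probe sets called is not given for these fits or for the counts that follow. Counts were 16 with only the 2 groups in the fit, 15 by the methods' t-test with Benjamini-Hochberg adjustment, and 27, 18 and 17 without S14D replicates 1, 2 and 3, and 24 without the arrays labelled S35D and 21W28D. HEXA, GUSB, PSAP and NPC2 stayed past the test in all 34 settings tried. NEU1, GLA, GLB1, ARSA, GM2A, CTSB, LGMN, TPP1 and LAMP1 stayed past it in all but the macrophage covariate. LIPA did so in all but the methods' t-test with Benjamini-Hochberg adjustment. The other called genes were less stable. ATP6V0D1 lost its call in 16 settings, ASAH1 in 14 and SMPD1 in 13 of 33. IDS, CTSH, CD63 and ATP6AP2 each lost it in 9, SCARB2 in 8 and CTSZ in 6. MCOLN1 lost it in 4, LAMP2 in 3 and FUCA1 in 2. Some of the 34 settings left out only an array outside the 2 groups compared, which enters this comparison through the shared spread alone. With the macrophage score the log2 difference was -2.79 for NEU1 (adjusted p = 0.0669), -1.86 for ARSA (0.0671), -1.73 for LGMN (0.0804), -0.82 for CTSB (0.0625) and 0.87 for GM2A (0.323). Over all 34 settings the difference of NEU1 ran from -4.16 to -2.71, that of ARSA from -2.66 to -1.77 and that of LGMN from -2.42 to -1.66.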

How the data were processed

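RNA from the ileal mucosa of 20 piglets was hybridised to Affymetrix porcine arrays, 1 piglet per array. Per the study's methods, gcRMA normalization and a log transformation were applied by the authors, while GCOS 1.2 and GCRMA stand in the processing notes of the submitters. The deposited values were treated as log2 units, a base taken from their range of 2.08 to 16.41. Depth has no meaning for arrays, and 3 to 4 arrays per group limit the precision. No array was left out, groups were taken from the deposited labels, and 124 control probe sets were removed from 24123.

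Probe sets were named through the platform annotation, in which 10069 carried 1 symbol, 198 several and 13732 none, and the last 2 kinds were tested but not named. The brightest of a gene's probe sets over 20 arrays stood for the gene. Group means were fitted over all 20 arrays with limma 3.58.1 in R 4.3.3 (lmFit and eBayes), and p-values were adjusted by Benjamini-Hochberg over 23999 probe sets, with calls at an adjusted p under 0.05. The study's methods compare groups with Student's t-test, run here as an alternative. The script was tested on simulated data.

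The lysosomal genes, the other lists and the tests were chosen with earlier results of these data known. Per-array values are given for the 12 genes with the largest change among those called from S14D to S21D and for up to 4 called in another comparison. Of each other list, up to 4 called genes are named by the same measure. Scores are means of a list's genes, each centred on all arrays. Alternatives were a filter on dim probe sets (4 log2 units in 3 arrays), a 2-fold minimum, only the compared groups in the fit, robust variances with a trend on intensity, centring on array medians, repeated quantile normalization, the mean of all probe sets, a replicate block, the methods' t-test, cell type scores as covariates, exchanged labels, and each array left out. Centring moved the median of all probe sets from S14D to S21D by -0.05.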

Additional observations from a re-analysis of the deposited data

Results flagged for a closer look

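In groups of 4 piglets, 3 of 66 combinations of gene and group had 1 array apart from the other 3, where chance gives about 1 in 20. HEXA was at 11.01 in replicate 4 of S21D, with the other 3 arrays between 10.18 and 10.31. MAN2B1 was at 6.76 in replicate 4 of S28D, with the others at 6.09 or lower. SMPD1 was at 3.35 in replicate 2 of S28D, with the others at 3.45, all near the floor. No lysosomal gene had a difference between weaned and suckling piglets that changed between 28 and 35 days at an adjusted p under 0.05 from limma.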

How the results depend on the processing

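Of the 26 genes called from S14D to S21D, every one kept its sign in all settings except ATP6V0D1, which with the mean of all probe sets had log2 differences of -0.42 to S21D and -0.44 to S28D. With only the compared groups in the fit, 16 genes were called to S21D, 16 to S28D and 0 from S28D to S35D, and the methods' t-test with Benjamini-Hochberg adjustment gave 15, 15 and 0. The unadjusted methods' t-test gave 2 from S21D to S28D and 1 from S21D to 21W28D. Adding the B cell score gave 15 calls from S14D to S21D and 1 from S28D to S35D. The epithelial score gave 17 from S14D to S28D and 0 from S28D to S35D, and the macrophage score gave 5 from S14D to S21D, 18 from S14D to S28D and 9 from S28D to S35D. Without dim probe sets, 5 were called from S28D to S35D. After the exchange of labels between S35D and 21W28D, 0 were called from S28D to S35D and 2 from S28D to 21W28D. Shares of all probe sets are given above for the unadjusted methods' t-test and the exchanged labels only. Without such shares, the other counts are no result about the lysosomal genes. The cause of these changes was not tested.

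The replicate block gave 24 calls from S14D to S21D, 26 to S28D, 1 from S28D to S35D and 23 with age. Replicate numbers did not pair the samples, since 20 of 46 same-numbered pairs correlated above 0.1 and 19 below -0.1. With each array left out, counts ran from 17 to 27 from S14D to S21D, from 22 to 28 to S28D, from 0 to 4 from S28D to S35D, from 0 to 1 from 21W28D to 21W35D and from 21 to 28 with age, and all other counts stayed at 0. From S28D to S35D, 11 arrays moved the count by over 1.5 times, to 4 without S14D replicate 1, to 0 without S35D replicate 1, and to 1 without S14D replicate 2, S21D replicates 1, 3 and 4, S28D replicates 2, 3 and 4, S35D replicate 3 and 21W35D replicate 3. The share of all probe sets called is not given for the replicate block or the left-out arrays. These counts are therefore no result about the lysosomal genes. Of the 33 genes, SMPD1 alone did not pass the filter on dim probe sets.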

Other observations

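Of 20 measured other lysosomal hydrolases, 4 were higher and 1 was lower than in S28D in the arrays labelled S35D. SMPDL3A was 1.55 higher (adjusted p = 0.0359 from limma) and GGH, the lysosomal hydrolase of folate polyglutamates, was 1.77 higher (adjusted p = 0.0152). RAB11A, of recycling endosomes, was 1.05 higher (adjusted p = 0.0198) and FCGRT 0.77 higher (adjusted p = 0.0458). These genes were chosen after their values were seen, and they rest on the arrays whose label is in doubt. With the labels exchanged these differences stand for S28D against 21W28D, and from S28D to S35D none of the 4 genes was called, with log2 differences of -0.14 for SMPDL3A, -0.08 for GGH, -0.03 for RAB11A and 0.11 for FCGRT.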
